A study of Mus musculus with 6 samples.

Results

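Macrophages made up 572 of the 51426 annotated cells of a droplet-based single-cell RNA sequencing census of the adult mouse olfactory bulb. They were the cells that the deposited cell annotation places in its macrophage cluster (Mφ), and the library of each cell was read from the annotation's library column. The census held 52549 barcodes and 18560 genes, and 1123 barcodes carried no cluster name. The annotation divides the other cells into 38 clusters, Mφ included, of which 1 holds monocytes (623 cells) and 3 hold microglia (4001 cells in all). All mice were C57BL/6NJ animals of 14 weeks, and each of the 6 libraries pooled cells of several mice. The 2 control libraries came from mice labelled as not manipulated, the 2 naris-occluded libraries from mice with naris occlusion, and the 2 trained libraries from mice trained to discriminate odors for a water reward. Per the study's text the occlusion was unilateral and the bulb of the occluded side was the deprived sample. Per its methods, occlusion and training lasted 6 weeks, and the trained mice were water deprived. Training and water deprivation therefore cannot be told apart in the trained libraries. The study's text also calls the controls naive, while another sentence of it takes the open side of occluded mice as a control. Both sexes were used. Macrophage Xist, transcribed from the inactive X chromosome, was at 0 CPM in replicate 1 and at 908 to 1022 CPM in replicate 2 of each condition, and the Y-linked Ddx3y showed the opposite, so sex and replicate number cannot be told apart. Mice were perfused with saline and bulbs were taken with some surrounding tissue before papain dissociation, so some cells of the olfactory epithelium were included. Each library was a batch of pooled mice, so p-values measure the spread between such batches.

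Macrophages are resident phagocytes that take up debris, iron and foreign material and call in other immune cells with chemokines. In the brain they live at the borders, in the meninges, the choroid plexus and the space around vessels, whereas microglia live within the tissue and monocytes circulate in the blood. Macrophages of brain borders are known for scavenger receptors and C-type lectins, which bind sugars on microbes and on proteins to be cleared.

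The libraries held 110 and 87 (control), 106 and 108 (naris-occluded) and 91 and 70 (trained) macrophages, and no macrophage barcode occurred as a macrophage in more than 1 library. The median macrophage had 1630 unique molecular identifiers (UMIs, each 1 captured RNA molecule), with library medians of 1365 to 2121, and 816 genes. Its mitochondrial UMIs were 10.7%, against 7.37% in monocytes and 7.08% in microglia. Summed over cells, a library held 142079 to 222873 macrophage UMIs. A level is given below as CPM, the share of a gene in the UMIs of the summed cells scaled to 1e6, of 1 type in 1 library, and means are over the 6 libraries with the SD between them. Because the RNA was counted by its 3′ end without correction for length, levels are compared between cells and not between genes.

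Mrc1, the mannose receptor, and Aif1, the myeloid cytoskeletal protein Iba1, were read as markers of the cluster. Mrc1 stood at 1506 and 1387 CPM in the control, 1476 and 1292 in the naris-occluded and 1363 and 1548 in the trained libraries, against 139.5 to 259 in monocytes and 5.87 to 9.28 in microglia, and among all 38 clusters its level was highest in Mφ. Aif1 was at 767 ± 116 CPM in macrophages (SD, n = 6 libraries), 655 ± 111 in monocytes and 1187 ± 78.98 in microglia, and Mφ ranked 4 among the clusters. Of 19 genes known from macrophages of brain borders, 18 had their highest level of all clusters in Mφ. The exception was Colec12, a scavenger receptor that was highest in a mesenchymal cluster. Of 15 genes shared by myeloid cells, 2 (Adgre1, which encodes F4/80, and Fcer1g) were highest in Mφ, so the border genes set the cluster apart more than general myeloid ones. The gene lists were chosen with earlier results of these data known, and the clusters were made from these same genes. These levels therefore describe the named cluster and do not test its name.

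Promoters of 4 of the genes that set Mφ apart are printed here, 250 bases before and 50 after the RefSeq transcription start on build GRCm38.p6. They are shown because these genes lead the cluster and because the windows of Cd209f and Cd209g resemble each other. Pf4 lies at chr5:90772185-90772484 on the + strand and Mrc1 at chr2:14229164-14229463 on the + strand. Cd209f lies at chr8:4105715-4106014 on the − strand and Cd209g at chr8:4134486-4134785 on the + strand. Capitals mark, in Pf4 and Mrc1, the letters GAGGAA or their reverse TTCCTC, the core bound by the myeloid factor PU.1, and in Cd209f and Cd209g the letters TGACTCA or their reverse TGAGTCA, an AP-1 motif.

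Pf4: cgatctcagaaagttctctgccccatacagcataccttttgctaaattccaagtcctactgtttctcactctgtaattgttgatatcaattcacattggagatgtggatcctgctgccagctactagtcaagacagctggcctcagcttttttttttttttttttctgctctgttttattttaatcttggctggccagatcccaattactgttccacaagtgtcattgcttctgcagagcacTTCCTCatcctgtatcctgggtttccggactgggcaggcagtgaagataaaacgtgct
Mrc1: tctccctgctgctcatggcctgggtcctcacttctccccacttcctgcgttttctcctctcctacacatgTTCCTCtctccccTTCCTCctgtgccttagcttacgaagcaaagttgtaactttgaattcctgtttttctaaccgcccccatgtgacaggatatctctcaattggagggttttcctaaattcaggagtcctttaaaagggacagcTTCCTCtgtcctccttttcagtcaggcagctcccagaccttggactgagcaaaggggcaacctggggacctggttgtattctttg
Cd209f: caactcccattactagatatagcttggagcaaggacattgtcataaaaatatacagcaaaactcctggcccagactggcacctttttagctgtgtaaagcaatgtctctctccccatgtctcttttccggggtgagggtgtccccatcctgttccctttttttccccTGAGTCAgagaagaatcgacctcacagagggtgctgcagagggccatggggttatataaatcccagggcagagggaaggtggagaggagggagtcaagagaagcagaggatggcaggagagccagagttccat
Cd209g: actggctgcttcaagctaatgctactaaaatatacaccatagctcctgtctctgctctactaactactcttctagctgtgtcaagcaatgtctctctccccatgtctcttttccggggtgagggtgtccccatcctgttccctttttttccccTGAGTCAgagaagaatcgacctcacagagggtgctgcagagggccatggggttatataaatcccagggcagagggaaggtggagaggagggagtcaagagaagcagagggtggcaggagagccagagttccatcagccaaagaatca

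GAGGAA was found on either strand in 28.3% of all 32851 promoters of this length, and in 13 of the 25 promoters of the 19 leading macrophage genes that matched RefSeq. It occurred 1 time in Pf4, ending close to the start, and 3 times in Mrc1. TGACTCA was found in 5.2% of all promoters and in those of Cd209f, Cd209g and Folr2 among the leading genes. The Cd209f and Cd209g windows shared 83.2% of 286 aligned bases. Their transcripts, of which the 3′ ends were counted, were not compared. How well reads tell the Cd209 genes apart was not tested, so their separate levels may be uncertain. Another motif searched, TGCTGAC, part of the element bound by MAF proteins, was in 4.67% of all promoters and in 2 of the 25. A match of letters is a description and not a binding site.

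The 25 genes that stood furthest above both monocytes and microglia included the chemokines Pf4, Ccl24 and Ccl8, lectins such as Cd209f and clearance receptors such as Stab1, beside enzymes and other genes. Pf4, a chemokine also called platelet factor 4, was at 4829 and 4723 CPM in the control, 5434 and 5480.1 in the naris-occluded and 4819.5 and 5821 in the trained libraries. It was at 420.0 to 833 CPM in monocytes and 2.52 to 10.3 in microglia, so no library of either reached the lowest macrophage library. The log2 ratio of macrophages, computed on CPM + 10 within each library, was 3.09 ± 0.33 over monocytes and 8.42 ± 0.25 over microglia (SD, n = 6 libraries). Ccl24, a chemokine for eosinophils, was at 512 and 479 CPM in the control, 458 and 524 in the naris-occluded and 326 and 593 in the trained libraries, against 6.07 to 27.5 in monocytes and 13.7 to 18.8 in microglia. Over the summed counts of all libraries it was 31.1 times higher than in monocytes and 28.9 times higher than in microglia, with no overlap of libraries.

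Cd209f, a lectin of the DC-SIGN family, was at 1220.4 and 1028 CPM in the control, 956 and 1017 in the naris-occluded and 634 and 1027 in the trained libraries, and its microglial mean was 0.135 CPM. In monocytes it ranged from 0 to 84.7 CPM, a wide spread that still left every macrophage library higher. Its neighbors in the same family were also carried by Mφ, with Cd209g at 334 ± 72.5 CPM, Cd209b at 209.7 ± 89.3 and Cd209a at 199.6 ± 74.8, while no microglial mean of these passed 0.255 CPM. Their monocyte means were 7.11, 0.581 and 36.1 CPM, and Cd209a did not reach 2-fold over monocytes in every library. Cbr2, a carbonyl reductase, was at 470.2 and 556 CPM in the control, 628 and 690.2 in the naris-occluded and 582 and 573 in the trained libraries, against means of 28.02 in monocytes and 2.03 in microglia. Folr2, a folate receptor, was at 406 ± 96.2 CPM (monocytes 23.95, microglia 9.85). Tslp, a cytokine best known from epithelia, was at 429.9 ± 114 CPM (monocytes 15.97, microglia 3.66), and its highest level outside the immune clusters was 40.1 CPM in a mural cluster.

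Lyve1, a hyaluronan receptor, was carried by Mφ at very unequal levels, 137 and 176 CPM in the control, 130.1 and 88.2 in the naris-occluded and 538 and 230.5 in the trained libraries. It had 4 monocyte cells with a UMI and no UMI in 4001 microglia, which puts the macrophage level over the summed counts at least 495-fold higher than the 3 UMIs that a count of 0 allows over all microglia. F13a1, the A subunit of coagulation factor XIII, was more even, at 549 and 486 CPM in the control, 610.2 and 576 in the naris-occluded and 614 and 559.7 in the trained libraries. It was at 106 ± 37.3 CPM in monocytes and without a UMI in microglia, where it was at least 1378-fold lower on the same scale. Among the 25 genes that led in Mφ, 23 were also higher there than in every cluster outside the immune cells. The exceptions were Egfl7, an endothelial gene at 232 ± 34.2 CPM here and 1596 in an endothelial cluster, and Cyr61, a matrix protein at 76.7 ± 22.5 CPM here and 85.1 in a mural cluster.

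**Figure D1:**
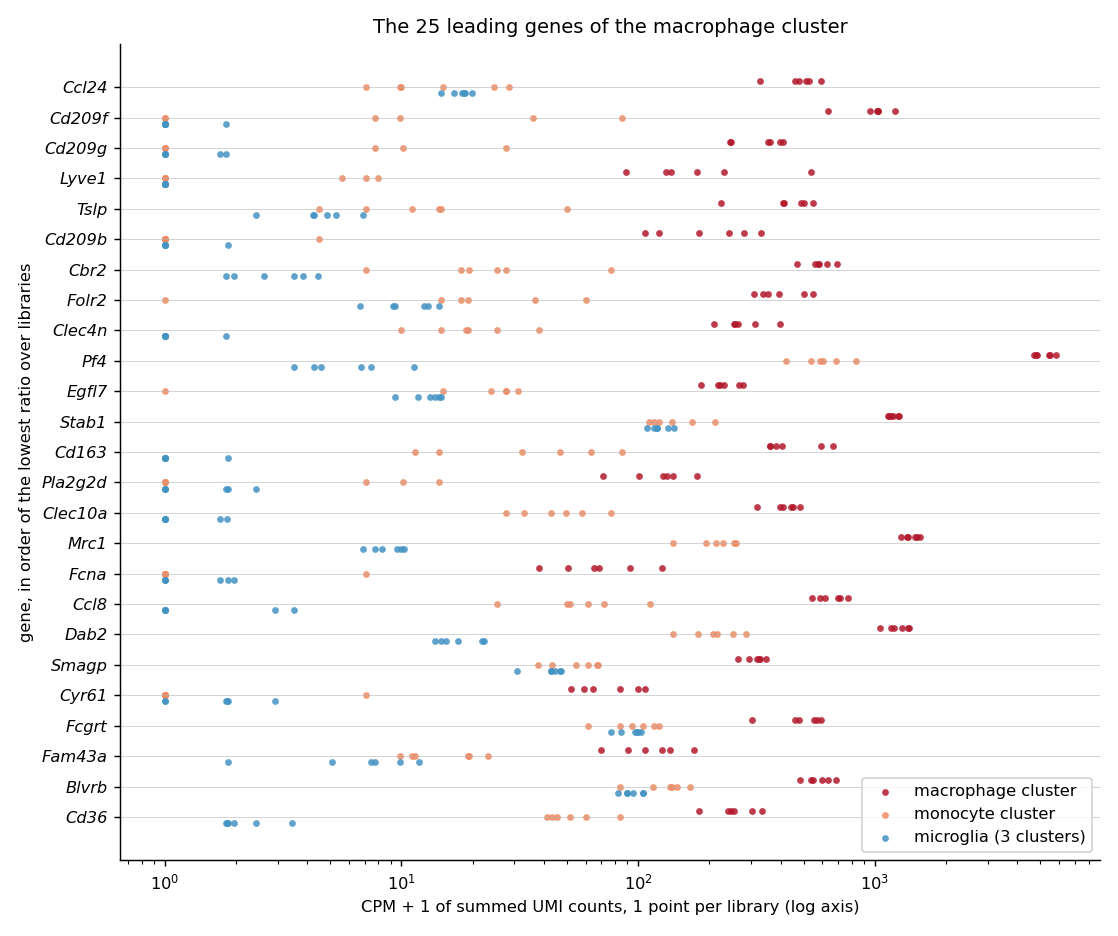
Levels of the 25 leading macrophage genes as CPM + 1 (log axis), 1 point per library, in macrophages, monocytes and microglia. For Pf4, the macrophage libraries lie at 4723 to 5821 CPM, the monocyte libraries at 420.0 to 833 and the microglial libraries at 2.52 to 10.3.

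Counted over all genes, a gene was taken as higher or lower when macrophages differed at least 2-fold, on CPM + 10, in the same direction in all 6 libraries. Against monocytes, 77 of 6312 compared genes were higher (1.22%) and 119 lower (1.89%). Against microglia, 175 of 6382 were higher (2.74%) and 194 lower (3.04%). The clusters were made from these same genes, so the counts describe the clusters and no test was run. 51 genes were higher in macrophages than in both, 17 were lower than in both, and Crip1 and H2-Aa were lower than in monocytes and higher than in microglia. With TMM scaling in place of CPM, the counts against microglia became 151 higher and 256 lower, as the median log2 ratio of all compared genes moved from −0.04 to −0.22 there and from 0.11 to −0.03 against monocytes.

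**Figure D2:**
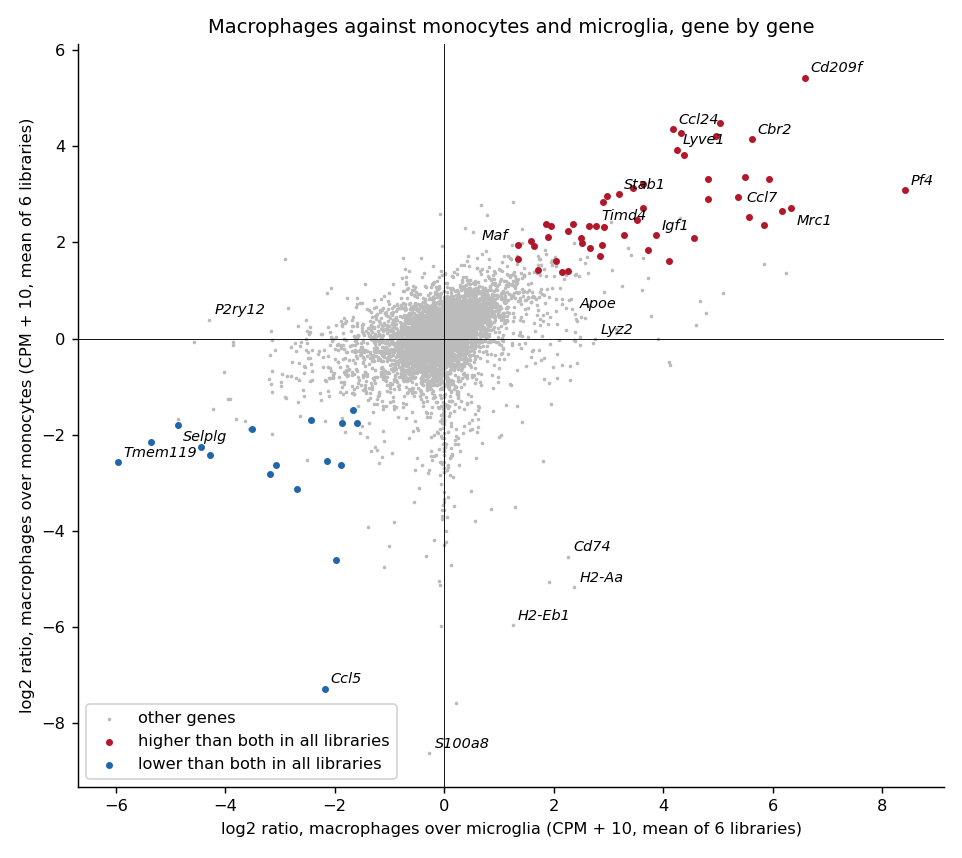
Mean log2 ratio over 6 libraries of macrophages over microglia (horizontal) and over monocytes (vertical), 1 point per gene, with genes higher than both in red, lower than both in blue and some named. Pf4 lies at 8.42 and 3.09, the class II gene H2-Aa lies far below at −5.18, and the microglial gene Tmem119 far to the left at −5.97.

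Lectins and scavenger receptors that bind and take up material were in part higher in Mφ. Of 12 C-type lectins, 7 were higher than in monocytes and 9 higher than in microglia, and none was lower than in either. Clec10a, a galactose-binding lectin, was at 416 ± 57.4 CPM (monocytes 47.02, microglia 0.259), and Clec4n, which encodes dectin-2, was at 281 ± 65.5 (monocytes 20.01, microglia 0.135). Clec12a, a lectin that senses crystals, was the contrast within the group, at 178 ± 58.6 CPM beside 257 ± 33.9 in monocytes, and at 0.409 CPM in microglia. The median log2 ratio of the lectins was 2.18 over monocytes and 4.49 over microglia, against 0.11 and −0.04 over all compared genes.

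Of 10 scavenger receptors, 4 (Mrc1, Cd163, Stab1 and Cd36) were higher than in monocytes and 6 (these with Msr1 and Colec12) higher than in microglia. Cxcl16, which is both a scavenger receptor and a chemokine, was lower than in monocytes. Cd163, the receptor for hemoglobin bound to haptoglobin, was at 380.4 and 359 CPM in the control, 404 and 358 in the naris-occluded and 666 and 593 in the trained libraries, with means of 41.4 in monocytes and 0.143 in microglia. Stab1, the clearance receptor stabilin 1, was at 1146 and 1175 CPM in the control, 1189 and 1136 in the naris-occluded and 1267 and 1258 in the trained libraries, a narrow range. Its log2 ratio was 3.003 ± 0.38 over monocytes and 3.19 ± 0.11 over microglia. Dab2, an adaptor for receptor endocytosis, was at 1250.1 ± 133 CPM, against 212 ± 51.4 in monocytes and 16.6 ± 3.68 in microglia.

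The genes for uptake of dead cells were split. Of 13 compared, 3 (Gas6, Timd4 and Stab1) were higher than in monocytes and than in microglia, Rac2 was lower than in monocytes, and Pros1, Mertk, Itgb5 and Elmo1 were lower than in microglia. Gas6, which bridges phosphatidylserine on dying cells to receptors such as MERTK, was at 655 and 669 CPM in the control, 740.3 and 924 in the naris-occluded and 576 and 672 in the trained libraries, with means of 131 CPM in monocytes and 174 in microglia. Its receptor Mertk ran the other way, at 44.8 ± 10.8 CPM in macrophages and 176 ± 22.5 in microglia, and so did the second bridging ligand Pros1, at 44.4 ± 11.5 and 161 ± 9.24. Timd4, a direct phosphatidylserine receptor, was low in all cells, at 61.1 ± 19.6 CPM from 66 UMIs in macrophages, 4.30 in monocytes and none in microglia. Of 7 Fc receptor genes, the inhibitory Fcgr2b (424 ± 89.7 CPM) and the neonatal receptor Fcgrt (492 ± 108 CPM) were higher than in monocytes, where they were at 141 and 96.5, and Fcgrt alone was higher than in microglia.

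Chemokine ligands and receptors were split. Of 22 genes compared with monocytes, the ligands Ccl2, Ccl7, Ccl8, Ccl24 and Pf4 were higher and Ccl5, Cxcl16, Ccr2 and Cxcr4 were lower. Of 18 compared with microglia, those 5 ligands with Ccl12 and the receptor Ccr1 were higher, and 4 genes, Ccl4 and Cx3cr1 among them, were lower. The ligands of CCR2, which draw monocytes, varied between libraries. Ccl2 was at 1030.2 and 816 CPM in the control, 938 and 1572 in the naris-occluded and 710.4 and 1218 in the trained libraries, Ccl7 at 1321 and 1091 CPM in the control, 691 and 1266 in the naris-occluded and 947 and 1317 in the trained libraries and Ccl12 at 2504 and 1379.5 CPM in the control, 2818 and 1842 in the naris-occluded and 2119 and 2101 in the trained libraries. The Ccl2 log2 ratio was 2.90 ± 1.21 over monocytes and 4.83 ± 0.43 over microglia, and monocyte libraries ranged from 40.3 to 601 CPM. Ccl12 was also a monocyte gene, at 1079 ± 276 CPM, and its log2 ratio of 0.97 ± 0.31 over monocytes was below 2-fold in at least 1 library.

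Ccl8 was at 613 and 697 CPM in the control, 713 and 539.7 in the naris-occluded and 768 and 586 in the trained libraries, against 61.1 in monocytes and 0.740 in microglia. Of the receptors, Ccr2 had 2 UMIs in all 572 macrophages and a mean of 387 ± 98.2 CPM in monocytes. Cx3cr1, the fractalkine receptor, was at 239.7 ± 98.97 CPM in macrophages, 389 ± 88.7 in monocytes and 1805 ± 127 in microglia. The receptor gene Ccr1 was at 122 ± 46.5 CPM in macrophages and 13.02 in microglia. Ccl5, a ligand of CCR1, had 3 UMIs in macrophages and a mean of 2291 ± 1357 CPM in the monocyte cluster.

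Against monocytes 1 of 12 complement genes was higher and none lower, beside 1.22% and 1.89% of all compared genes. Against microglia C4b and Cfp were higher and Itgam, a chain of complement receptor 3, was lower, of 10 compared. Over all genes 2.74% were higher and 3.04% lower than in microglia. C1qa, a chain of C1q, was at 6569 ± 466 CPM in macrophages, 3700.4 ± 534 in monocytes and 10575 ± 559.7 in microglia. Coagulation added F3, which encodes tissue factor, and the protease inhibitor Serpinb6a to F13a1 as higher than in monocytes, 3 of 5 compared. Serpinb6a was at 127 ± 10.9 CPM in macrophages, against 28.7 in monocytes and 11.99 in microglia.

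Genes for iron and heme were higher in part. Cd163, Blvrb, Slc40a1 and Trf were higher than in monocytes, of 13 compared, and Lcn2, a binder of iron carriers known from granulocytes, was lower. Cd163 and Blvrb were higher than in microglia, of 11, and none was lower. Blvrb, biliverdin reductase B, was at 580.0 ± 72.3 CPM, against 130.3 in monocytes and 93.6 in microglia. Slc40a1, the iron exporter ferroportin, was at 210.5 ± 55.5 CPM in macrophages, 24.9 in monocytes and 126 in microglia, and Trf, the iron carrier transferrin, at 1412 ± 168, 434 and 924. Hmox1, which breaks down heme, was at 95.6 ± 47.2 CPM, with 26.4 in monocytes and 25.6 in microglia, and did not reach 2-fold in every library. The iron-storing Ftl1 was at 10985 ± 1238 CPM, beside 7133 ± 1090.0 and 4922 ± 484.

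Interferon-induced genes set macrophages above microglia. None of 17 was higher or lower than in monocytes, where 1.22% and 1.89% of all genes were. Against microglia 7 (Ifit3, Ifitm3, Ifi27l2a, Bst2, Irf7, Oasl2 and Ifi204) were higher and none lower, beside 2.74% and 3.04% of all genes. Ifitm3, which blocks viral entry, was at 1316 ± 312 CPM in macrophages, 1167 ± 348 in monocytes and 144 ± 54.1 in microglia. Bst2, which tethers virus particles, was at 870.4 ± 166, 601 ± 125 and 227 ± 19.3. Class I MHC genes, which interferon also raises, gave 0 of 8 higher or lower in both comparisons. As 1.22% to 3.04% of all genes passed these limits, a count of 0 does not set so short a list apart.

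Lists of growth factors, transcription factors and lipid mediator enzymes gave 1 of 10, 1 of 17 and 2 of 9 genes above monocytes. Against microglia 1 of 10, 2 of 18 and 0 of 7 were higher. The shares over all genes were 1.22% and 2.74%. None was lower than in monocytes, and 1, 2 and 1 were lower than in microglia. Igf1, insulin-like growth factor 1, was at 285 and 338 CPM in the control, 426 and 322 in the naris-occluded and 288 and 336 in the trained libraries. Its log2 ratio was 2.15 ± 0.43 over monocytes and 3.88 ± 0.26 over microglia. Igf1 was the only gene of the 10 compared on the list of cytokines and growth factors that was higher than in either. Tslp, also higher than in both, was not on that list. Maf, the transcription factor c-MAF, was at 1104 and 1126 CPM in the control, 1139.7 and 1089.8 in the naris-occluded and 1242 and 1172 in the trained libraries, against 294 in monocytes and 445 in microglia. Sall1, the factor that maintains microglial identity, ran the other way against microglia, at 10.6 ± 6.35 and 171 ± 22.02 CPM. Spi1, which encodes PU.1, was at 269 ± 38.3 CPM in macrophages, 264 ± 32.4 in monocytes and 383 ± 29.2 in microglia. Ltc4s, leukotriene C4 synthase, was at 867 ± 14.4 CPM and Hpgd, which inactivates prostaglandins, at 399 ± 71.9, both higher than in monocytes (138 and 142), while Ltc4s was at 923 ± 87.03 CPM in microglia.

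Lysosomal and microglial identity genes set macrophages below microglia. Of 22 lysosomal genes compared with microglia, 8 were lower, Ctsd, Ctss and Cst3 among them, and Ctsc was higher. Over all genes 3.04% were lower and 2.74% higher. Against monocytes none of 22 passed in either direction, beside 1.22% higher and 1.89% lower over all genes. Ctsd, the protease cathepsin D, was at 1463 ± 208 CPM in macrophages, 2109 ± 534 in monocytes and 9245 ± 863 in microglia. Ctsc, which activates granule proteases, ran the other way at 1073 ± 177 CPM, against 362 ± 29.02 in microglia. Of 17 microglial identity genes, 16 were lower in macrophages than in microglia. Tmem119 was at 9.38 ± 3.86 CPM beside 1187 ± 134, and the ADP receptor P2ry12 at 85.6 ± 28.5 beside 1780.4 ± 251. The exception was Fcrls, at 1234 ± 234 CPM in macrophages, 385 ± 116 in monocytes and 1651 ± 166 in microglia, the only gene of this list that was higher than in monocytes.

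Lipid and damage genes were mixed. Apoe, the carrier of lipids between cells, was at 51643 ± 3638 CPM in macrophages, 36396 ± 5892 in monocytes and 9934 ± 1358 in microglia, and the sterol exporter Abcg1 was lower than in microglia (20.00 ± 5.40 and 84.2 ± 15.7 CPM), of 11 lipid genes. Of the genes raised in microglia near damage, Cst7, Cd9 and Trem2 were lower than in microglia, of 6 compared. Trem2, a lipid-sensing receptor, was at 455 ± 79.8 CPM beside 546 ± 154 in monocytes and 2631 ± 214 in microglia. Cst7 had no UMI in macrophages. Of 7 purinergic genes, P2ry12, P2ry13, Adora3 and Entpd1 were lower than in microglia, and P2rx7, the ATP-gated channel, was higher than in monocytes (192 ± 56.3 and 30.7 ± 7.76 CPM). Of 14 cytokine receptors, none passed against monocytes, where 1.22% of all genes were higher and 1.89% lower. Nrp1 was higher than in microglia, and Il10ra, Tgfbr1 and Ifngr1 were lower, beside 2.74% and 3.04% of all genes. Tgfbr1, a receptor of TGF-β, was at 48.5 ± 29.4 CPM in macrophages and 646 ± 41.1 in microglia.

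Antigen presentation by class II MHC set macrophages far below monocytes. Of 9 class II genes, 7 were lower in macrophages than in monocytes and none was higher. Against microglia, of 7 compared, H2-Aa was higher and H2-Oa lower. H2-Aa, a class II chain, was at 98.1 ± 26.1 CPM in macrophages, 3807 ± 179 in monocytes and 12.5 ± 12.6 in microglia. Cd74, the chaperone of class II, was at 449 and 521 CPM in the control, 534 and 560.5 in the naris-occluded and 736 and 481 in the trained libraries, with 12797 ± 555 in monocytes and 118 ± 76.9 in microglia, so macrophages stood between the other cells in every library. Of 11 monocyte genes, 9 were lower and none higher. Ly6c2 had no UMI in macrophages and was at 363 CPM in monocytes, at least 129-fold higher there, and Cd52 was at 111 ± 23.7 CPM beside 1808 ± 268. Genes of granulocytes moved with the monocyte side, since their list summed to 11603 ± 8834 CPM in the monocyte cluster (range 2364 to 24810.3) and 23.8 ± 7.25 in macrophages, and their part in the comparison with monocytes was not tested. Lymphocyte genes summed to 1161 ± 323 CPM in monocytes and 34.9 ± 15.6 in macrophages. In the monocyte cluster, 77 of 623 cells (12.4%) had at least 6 of the 19 border genes. The part of such cells in these comparisons was not tested.

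Genes of other cells were also found in Mφ. The olfactory ensheathing list summed to 3109.6 ± 898 CPM in macrophages (2086 to 4524 by library), 1788 ± 614 in monocytes and 1249 ± 169.6 in microglia. The endothelial list summed to 279 ± 132 CPM in macrophages and the neuronal list to 840.2 ± 270.0. The oligodendrocyte list summed to 981 ± 353 CPM, beside 835 in monocytes and 1050 in microglia. The sensory neuron list summed to 1080 ± 572, beside 743 and 940. Of the 572 macrophages, 24 drew at least 2% of their UMIs from the 44 genes of the other-cell lists, with a median over all cells of 0.486% and a maximum of 5.97%. Genes raised by enzymatic dissociation summed to 6271 and 8207 CPM in the control, 9005 and 10919 in the naris-occluded and 5773 and 12729 in the trained libraries. In the same order monocytes had 4435 and 6136, 6195 and 7982, and 4234 and 9451. Microglia had 5847 and 6764, 7112 and 8401, and 4985 and 7541, so both lay below macrophages in every library. Of 19 genes compared, none was 2-fold higher or lower than in monocytes in all libraries, against 1.22% and 1.89% of all genes. Dusp1 and Klf4 were higher than in microglia.

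**Figure D3:**
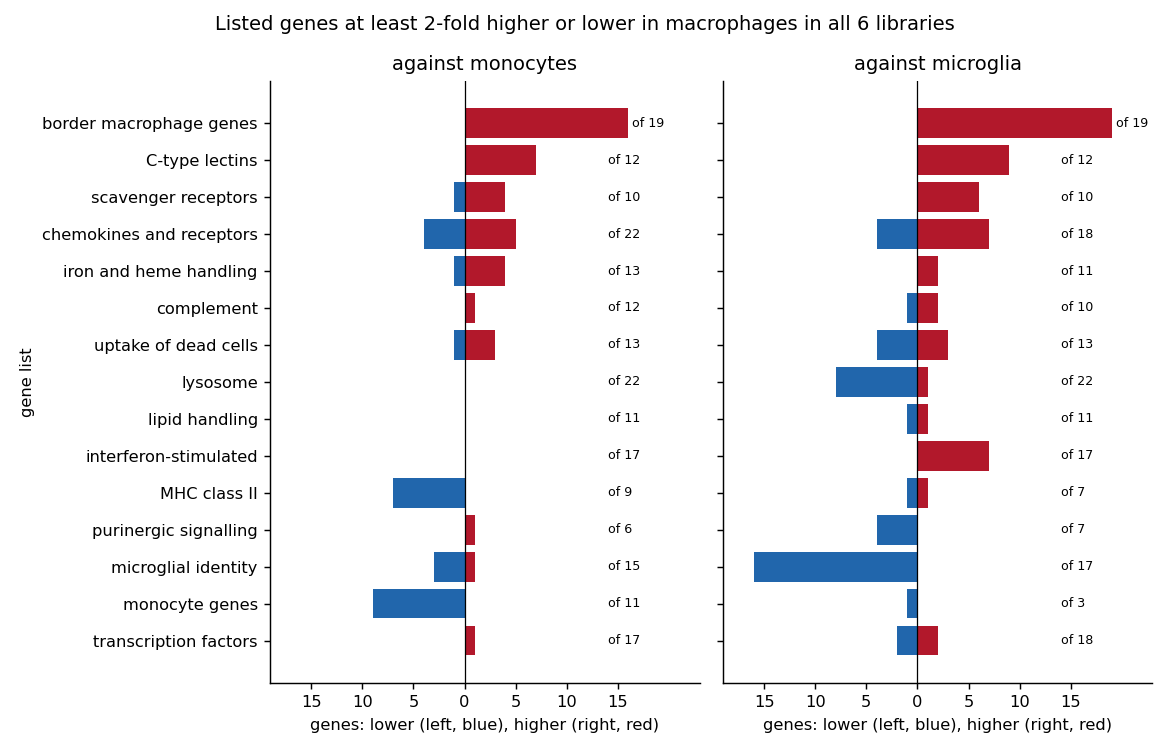
Number of genes of 15 lists that were at least 2-fold higher or lower in macrophages in all 6 libraries, against monocytes and against microglia. The 19 border genes hold 16 and 19 higher genes, the class II list 7 lower genes against monocytes, and the microglial identity list 16 lower genes against microglia.

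Most cells of the cluster carried several border genes, while single border genes and other groups were spread unequally among cells. A macrophage had a median of 9 of the 19 border genes, and 532 cells (93.0%) had at least 3, against 32.3% of monocytes, 2.15% of microglia and 0.191% of cells in the neuronal clusters. At least 6 were found in 73.1% of macrophages, 12.4% of monocytes and 0% of microglia. Pf4 had a UMI in 537 cells (93.9%) and Mrc1 in 419 (73.3%), whereas Cd209f had a UMI in 238 cells and Cd163 in 236. The monocyte-attracting ligands were unequal as well. The 57 cells richest in Ccl7 held 76.8% of its 1151 UMIs, and for Ccl2, Ccl8 and Ccl12 as many cells held 70.2%, 75.4% and 68.5%. Among the border genes the same share was 69.0% for Lyve1, 65.9% for Cd209g and 33.9% for Mrc1, and for Aif1 it was 38.4%. Tmem119 had a UMI in 10 macrophages and Mki67, a marker of dividing cells, in 4.

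Class II transcripts were held by few macrophages. No UMI of the 3 class II chain genes H2-Aa, H2-Ab1 and H2-Eb1 was found in 495 cells, 1 or 2 in 46, and at least 3 in 31, and these 31 cells carried 80.3% of all class II chain UMIs of the cluster and 53.0% of its Cd74 UMIs. They came from all libraries, with 1 and 4 in the control, 7 and 5 in the naris-occluded and 6 and 8 in the trained libraries, and had a median of 2542 UMIs, against 1543 in cells with none. The limit of 3 lies in a continuous range, with 15 cells at 2 UMIs and 11 at 3. Cells with at least 3 had 3923 CPM of Cd74, against 159 in cells with none, a gene that this limit did not use but that the same clustering did. The border list, without Lyve1, summed to 15446 CPM in the former and 15529.8 in the latter, so the level of the border genes differed little between them. Cd209f was at 684 and 1018 CPM, Cd209a at 64.5 and 225, Ccl8 at 1006 and 555, and the monocyte list at 297 and 158. These are sums over cells, given without a test.

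With each cell thinned to 500 UMIs, which left no cell out, a class II chain UMI was found in 8.04% of macrophages (95% exact binomial interval 5.95% to 10.6%), 58.4% of monocytes, 1.37% of microglia and 0.609% of cells in the neuronal clusters, which should lack them. Without thinning the macrophage share was 13.5%. The neuronal cells were shallower, with a median of 1013 UMIs before thinning. Lyve1 gave 9.09% of macrophages thinned (6.86% to 11.8%), 21.7% unthinned, and 0.0133% of neuronal cells. By library, the thinned Lyve1 share was 10.00% and 9.20% in the control, 5.66% and 2.78% in the naris-occluded and 21.98% and 5.71% in the trained libraries. The first trained library was highest, and the second lay within the range of the control and naris-occluded libraries. At 1000 UMIs, which left out 175 cells, the shares were 12.7% and 19.3% in the control, 16.7% and 5.41% in the naris-occluded and 35.1% and 21.2% in the trained libraries, and without thinning 18.2% and 19.5% in the control, 16.98% and 12.04% in the naris-occluded and 38.5% and 30.00% in the trained libraries. In both of these the trained libraries were the highest, the second trained library included. The 124 macrophages with a Lyve1 UMI had 540.4 CPM of Folr2 and 604 of Cd163, against 362 and 391 in the others, and Cd74 was at 530.4 and 549. Of the 124 cells, 35 and 21 came from the trained libraries, which held 91 and 70 of the 572 macrophages. Cd163 was also highest in the trained libraries, so this contrast mixes cells and libraries, and depth was not matched. The intervals cover counting error only.

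**Figure D4:**
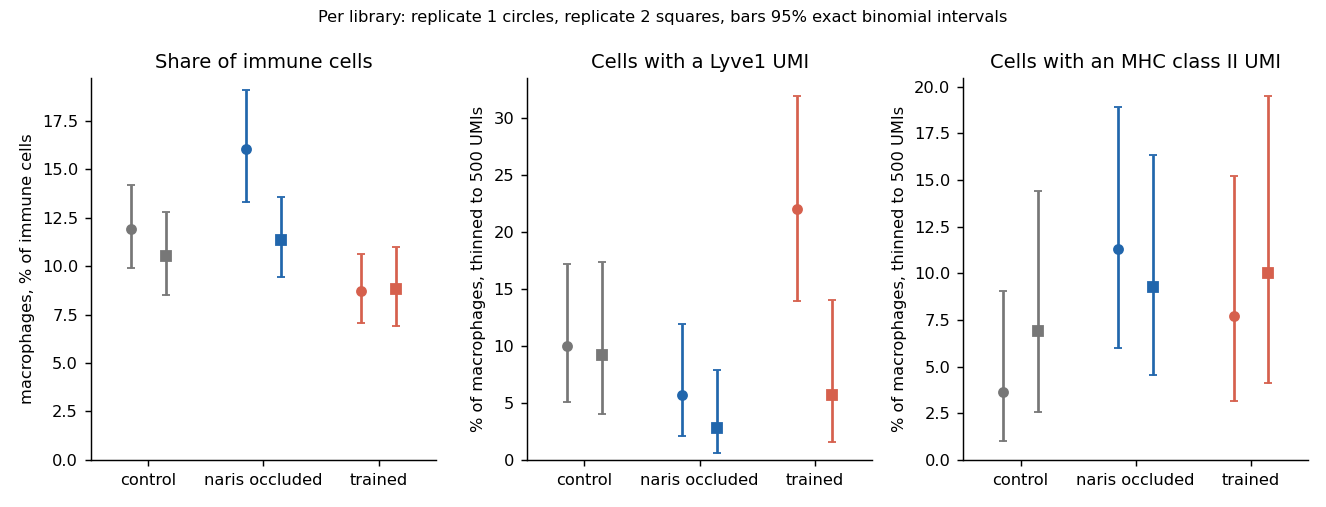
For each library, with 95% exact binomial intervals, the percent of immune cells that are macrophages and the percent of macrophages with a UMI of Lyve1 and of a class II chain after thinning to 500 UMIs. Lyve1 is highest in the first trained library at 21.98%, and macrophages are 8.73% and 8.82% of immune cells in the trained libraries and 10.5% to 16.1% in the others.

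Whether odor deprivation or training changes the number of macrophages was asked of the share of cells. Macrophages were 1.10% and 1.13% of all cells in the control, 1.45% and 1.18% in the naris-occluded and 0.861% and 1.04% in the trained libraries. Among immune cells they were 11.9% and 10.5%, 16.1% and 11.4%, and 8.73% and 8.82%, so the trained libraries were lowest and did not overlap the others. In edgeR's quasi-likelihood test on cell counts over the 38 clusters, the log2 difference was 0.24 (SE 0.28, adjusted p = 0.741) for naris-occluded against control, −0.23 (SE 0.28, adjusted p = 0.764) for trained against control and −0.47 (SE 0.28, adjusted p = 0.290) for trained against naris-occluded. Relative to immune cells alone, the edgeR difference of trained and naris-occluded libraries was −0.63 (SE 0.30, adjusted p = 0.140). None passed the threshold of 0.05, while 1 of 38 clusters (2.63%), 0 (0%) and 8 (21.1%) did so in these comparisons. A smaller share of a cell type and a lower yield of it in dissociation cannot be told apart.

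Genes were compared between conditions on counts summed over the macrophages of a library, with 2 libraries a group, by edgeR's quasi-likelihood test over 2738 genes. The main fit had no block for the replicate number, which coincides with sex. At an adjusted p below 0.05 it called 2 genes for naris occlusion relative to control (0.073% of those tested), 0 for training (0%), and 3 between trained and naris-occluded libraries (0.11%). With that block the counts were 5, 11 and 18. In the main fit, unadjusted p was below 0.05 for 126, 134 and 202 genes. DESeq2 called 0 in each comparison, with 26, 39 and 52 genes at an unadjusted p below 0.05. Single libraries moved the edgeR counts, to 1 to 18, 0 to 26 and 5 to 73 genes when each library was left out in turn, with the most without the second, the first and the second trained library.

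S100a5, a calcium-binding protein of olfactory sensory neurons whose level follows odor input, fell in macrophages under occlusion. Its level, scaled by TMM over the tested genes, was 845 and 1038 CPM in the control, 285 and 124 in the naris-occluded and 1382 and 608 in the trained libraries. The naris-occluded libraries thus lay below all others. Values of other cells and of the list sum below are CPM without this scaling. On that scale macrophages had 724 and 866 (control), 242 and 104 (naris-occluded) and 1184 and 514 (trained). The log2 fold change was −2.17 (SE 0.34, edgeR adjusted p = 0.00397) against control and 2.26 (SE 0.34, edgeR adjusted p = 0.00216) for trained against naris-occluded. Mφ ranked 12 of 38 clusters for S100a5 with 566 CPM, and the neuronal cluster with the most Omp, the marker of mature sensory neurons, held 21296. In that neuronal cluster it was at 27958 and 25395 CPM in the control, 14665 and 9865 in the naris-occluded and 19641 and 24693 in the trained libraries. Microglia had 792 and 624 CPM in the control, 265 and 109.6 in the naris-occluded and 849.9 and 335 in the trained libraries, and monocytes 470.3 and 481 CPM in the control, 196 and 259 in the naris-occluded and 649 and 312 in the trained libraries. In each of these cells the naris-occluded libraries lay below the others. The difference between the log2 change in macrophages and in microglia was −0.24 (edgeR unadjusted p = 0.332), and that between macrophages and monocytes was −1.18 (edgeR unadjusted p = 0.00244, adjusted p = 1). The sensory neuron list holds S100a5 itself beside Gng13 and Omp. Within macrophages the list summed to 1257 and 1492 CPM in the control, 579 and 389 in the naris-occluded and 1895 and 869 in the trained libraries. Its fall under occlusion is thus in part that of S100a5. Gng13 alone was at 507 and 626 CPM in the control, 323 and 270 in the naris-occluded and 691 and 349 in the trained libraries. The part of sensory neuron RNA in these values was not tested.

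Calb2, the calcium buffer calretinin of olfactory bulb interneurons, rose in the naris-occluded libraries and rested on few cells. After TMM scaling it was at 86.3 and 101 CPM in the control, 348 and 348 in the naris-occluded and 127 and 46.7 in the trained libraries. The log2 fold changes were 1.90 (SE 0.34, edgeR adjusted p = 0.0166) against control and −1.98 (SE 0.35, edgeR adjusted p = 0.0126) for trained against naris-occluded. However, 1 macrophage in each naris-occluded library held 43 of 66 and 30 of 56 of its Calb2 UMIs. Without the richest cell of each library, chosen after seeing the data, Calb2 gave 0.82 (edgeR adjusted p = 0.958) and −0.95 (edgeR adjusted p = 0.587), whereas S100a5 gave −2.58 (edgeR adjusted p = 1.10e-04). Without the first control library, which leaves 1 control assumed to vary like the other groups, Calb2 kept a similar fold change against control but was not called (1.77, edgeR adjusted p = 0.322). Calb2 was highest in a neuronal cluster, at 10574 CPM, and Mφ ranked 20.

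Lyve1, in contrast, was highest in Mφ of all clusters. It was at 160.3 and 211 CPM in the control, 153 and 106 in the naris-occluded and 628 and 273 in the trained libraries after TMM scaling, and trained libraries differed from naris-occluded ones by 1.78 (SE 0.34, edgeR adjusted p = 0.0215) and from control by 1.30 (SE 0.33, edgeR adjusted p = 0.401). The trained libraries were both above all others, yet the first was far higher than the second. Without that first trained library the difference from naris-occluded libraries was 1.06 (edgeR adjusted p = 0.413). That leaves 1 trained library, which the fit takes to vary like the other groups, and the reason for the lost call was not tested. Lyve1 UMIs came from many cells, 20 and 17 in the control, 18 and 13 in the naris-occluded and 35 and 21 in the trained libraries, with at most 6 UMIs in a cell. Without the richest cell of each library the fold change was 1.86 (edgeR adjusted p = 0.0700).

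No other gene passed the threshold in this fit, which has no block for the replicate number that coincides with sex. The smallest p-values for training against control belonged to Vcam1, an adhesion molecule for leukocytes, with a log2 fold change of 1.16 (SE 0.25, edgeR adjusted p = 0.377). After TMM scaling Vcam1 was at 228 and 203 CPM in the control, 285 and 249 in the naris-occluded and 486 and 483 in the trained libraries. The trained values lay above all others, and among all clusters Vcam1 was highest in Mφ. Gpr34, a lysophospholipid receptor, gave −1.20 (SE 0.29, edgeR adjusted p = 0.377), the chaperone gene Hspa8 0.81 (SE 0.20, edgeR adjusted p = 0.377) and Rnase4, a secreted ribonuclease, 1.04 (SE 0.28, edgeR adjusted p = 0.401). Training against control gave Hspa8 0.66 in monocytes and 0.78 in microglia, and Rnase4 1.06 and 0.11. In the same order it gave Vcam1 0.26 and 0.16 and Gpr34 −0.28 and −0.004. No gene was called in those cells. Hspa8 came close to the threshold between trained and naris-occluded libraries at 0.94 (SE 0.19, edgeR adjusted p = 0.0510), as did Iigp1, an interferon-induced GTPase, at −2.15 (SE 0.46, edgeR adjusted p = 0.0561). Between these libraries Hspa8 gave 0.99 in monocytes and 0.84 in microglia, and Iigp1 0.33 and 0.03. Under occlusion the tubulin gene Tuba1a gave −1.25 (SE 0.28, edgeR adjusted p = 0.179) and Nrsn1, a neuronal gene, −1.80 (SE 0.46, edgeR adjusted p = 0.495). Cd209b, after TMM scaling, was at 142 and 127 CPM in the control, 285 and 336 in the naris-occluded and 209 and 389 in the trained libraries. Under occlusion it gave 1.19 (SE 0.31, edgeR adjusted p = 0.495), with both naris-occluded libraries above both controls.

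The groups that distinguished macrophages from the other immune cells showed no called change in the border, lectin, scavenger, chemokine or class II genes under occlusion or training relative to control in the fit without a replicate block. With the block, the border gene Lyve1 (log2 fold change 1.28, edgeR adjusted p = 0.00953) and the chemokine gene Ccl3 (−1.03, edgeR adjusted p = 0.0466) were called for training. The median log2 fold change of the border genes was 0.07 under occlusion and 0.10 under training, over 17 genes tested. Chemokine genes gave −0.01 and 0.05, over 14 tested. Interferon-induced genes gave −0.65 under training over 12 tested, of which 6 had an unadjusted p below 0.05 and 0 were called, against a median of 0.01 and 134 of 2738 with such a p over all genes. The summed interferon list was 7676 and 5384 CPM in the control, 6654 and 5361 in the naris-occluded and 4013 and 5229 in the trained libraries, with the first control library highest and the first trained library lowest. The genes raised by dissociation gave medians of 0.46 under occlusion and 0.40 under training over 18 tested, of which 6 and 4 had an unadjusted p below 0.05, against 126 and 134 of 2738 over all genes, and 0 were called. Their part in the other changes was not tested.

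**Figure D5:**
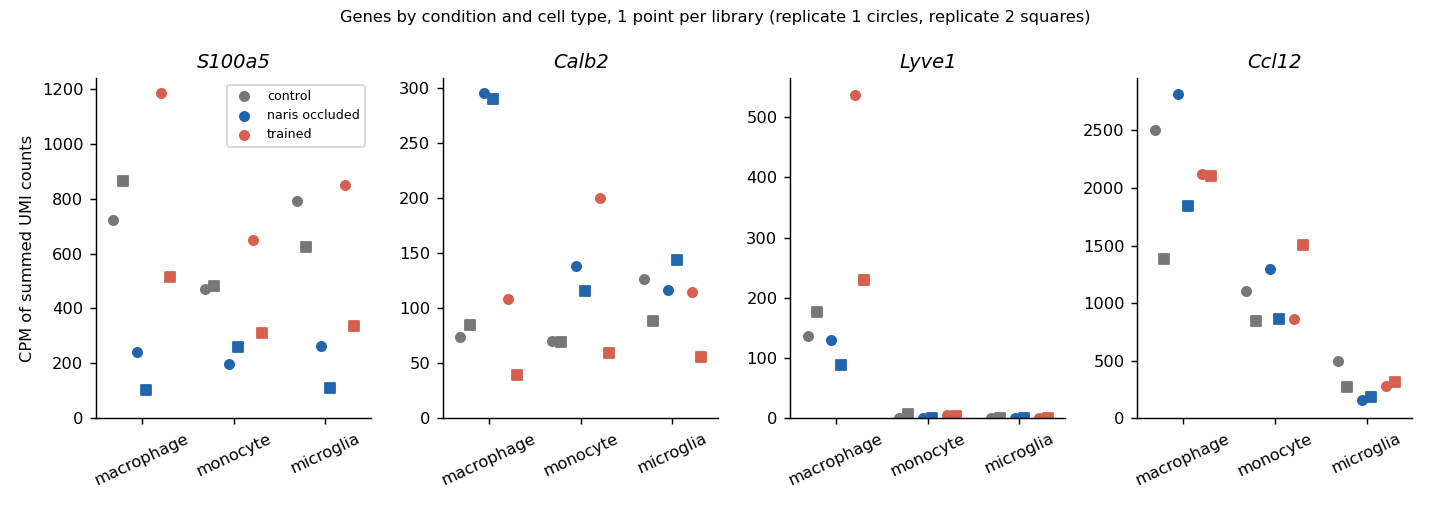
Level in CPM of S100a5, Calb2, Lyve1 and Ccl12 in macrophages, monocytes and microglia by condition, 1 point per library. In macrophages S100a5 lies at 242 and 104 CPM in the naris-occluded libraries and above them in the others, and microglial Ccl12 is lower in the naris-occluded than in the control libraries.

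A test of the difference between changes asked whether macrophages responded unlike their neighbors. Against monocytes it called 0 of 3933 genes (0%) for occlusion and 0 (0%) for training in edgeR, with 141 and 156 at an unadjusted p below 0.05. Against microglia it called 5 of 8401 (0.0595%) for occlusion and 5 (0.0595%) for training, falling to 1 for occlusion without the first naris-occluded library and to 0 for training without the first control library. Without the second naris-occluded library it called 16 for occlusion.

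Ccl12, a ligand of CCR2, had the smallest p of the 5 genes for occlusion. In macrophages it was at 2504 and 1380 CPM in the control and 2818 and 1842 in the naris-occluded libraries, and in microglia at 499 and 273 in the control and 157 and 181 in the naris-occluded libraries. The difference of the log2 changes was 1.45 (SE 0.18, edgeR adjusted p = 5.44e-11), made of a lower level in microglia beside overlapping values in macrophages. In microglia alone the change was −1.18 and was not called (edgeR adjusted p = 0.320), with 0 of 9254 genes called there for occlusion. Iigp1 was at 106 and 63.3 CPM in control and 206 and 109 in naris-occluded macrophages, and at 8.90 and 16.8, then 1.93 and 1.71 in microglia. These microglial levels rested on 11 and 20 UMIs in the control and 2 and 2 in the naris-occluded libraries. Microglia alone gave −2.74 (edgeR adjusted p = 0.997). Tuba1a was at 391 and 556 CPM in control and 215 and 176 in naris-occluded macrophages, beside 341 to 398 in microglia of these libraries. Ccl12, Iigp1, Tuba1a and Calb2 were called also after cells rich in the RNA of other cell types were left out, and Actb was not, although its difference of −0.66 (edgeR adjusted p = 0.119) was close to the −0.65 over all cells.

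For training, the called genes included Fabp7, Ptn, Ccl3 and Gpr34. Fabp7, a fatty-acid-binding protein, was at 708 and 908 CPM in control and 1011 and 1864 in trained macrophages, and at 533 and 522, then 443 and 381 in microglia. Among the clusters Fabp7 and the growth factor gene Ptn were highest in ensheathing cells. The ensheathing list summed to 2325 and 3217 CPM in the control, 2858 and 2086 in the naris-occluded and 3648 and 4524 in the trained libraries within macrophages. Without the cells that drew at least 2% of their UMIs from other cell types, the test called 0 genes for training while the differences of Fabp7 (1.004), Ptn (0.91) and Gpr34 (−1.19) stayed close to those over all cells (1.14, 0.94 and −1.25), with edgeR adjusted p = 0.0664, 0.0664 and 0.199. The inflammatory chemokine gene Ccl3 was at 465 and 282 CPM in control and 141 and 230 in trained macrophages, and at 373 and 382, then 255 and 596 in microglia, a difference of −1.21 (SE 0.27, edgeR adjusted p = 0.0283) with wide spread in both.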

How the data were processed

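The authors dissociated olfactory bulbs, captured cells with 10x Chromium 3′ version 2 chemistry, sequenced on a NextSeq500 and counted UMIs per gene with Cell Ranger 2.0.0 on mm10, as the submitters' processing notes name the tool and build. The deposited table holds UMI counts per gene and cell, without normalization. The annotation deposited by the authors gives each cell's library, its cluster from Seurat 2.2.1, and the fraction of mitochondrial UMIs. Per the methods, cells had at least 200 genes, doublets were removed and similar clusters were merged. No further cell was removed here. Cell names of 2 libraries begin with the name of another library, so the library column was used.

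Counts were summed per cluster and library and divided by their total to give CPM. Genes with a mean of at least 20 CPM in either cell type were compared as log2 ratios of CPM + 10 within each library (Python 3.11.15, numpy 2.4.6, pandas 2.3.3, scipy 1.17.1). Conditions were compared with edgeR 4.0.16 (R 4.3.3) by the quasi-likelihood test, all 6 libraries in the fit, TMM scaling and Benjamini-Hochberg adjustment over all genes tested, with a threshold of 0.05. Differences between the changes in macrophages and in monocytes or microglia were interaction terms of a fit over both cell types. An exact permutation test of 2 against 2 libraries cannot give a two-sided p below 0.333 and was not used. The steps were tested on simulated data.

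The macrophage cluster, the 37 gene lists and the comparisons were chosen with earlier results of these data known. Named genes were the listed genes, the 25 with the largest lowest ratio over both other cell types, the 10 furthest below each, and for each condition the called genes and the 5 with the smallest p. Actb and Ptn were named after their values were seen. Some genes counted in the totals are not reported here by name. Alternatives were other pseudocounts, fold limits, scalings, filters, DESeq2 1.42.0, a replicate block, cells of at least 1000 UMIs, and leaving out each library. Leaving out cells rich in RNA of other cell types, and the richest cell of each library, was chosen after seeing the data. The depth was 142079 to 222873 macrophage UMIs per library, and no cell was left out by thinning to 500 UMIs.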

Additional observations from a re-analysis of the deposited data

Results flagged for a closer look

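The change from control differed between macrophages and microglia in 10 genes by edgeR's interaction test. For naris occlusion the difference of log2 fold changes, macrophages minus microglia, was 1.45 for Ccl12 (SE 0.18, adjusted p = 5.44e-11), −1.24 for Tuba1a (adjusted p = 0.00407), 1.68 for Calb2 (adjusted p = 0.00596), −0.65 for Actb (adjusted p = 0.00745) and 3.55 for Iigp1 (adjusted p = 0.0105). Microglial Iigp1 rested on 11 and 20 UMIs in the control and 2 and 2 in the naris-occluded libraries. Without the cell richest in the gene in each library, Calb2 gave 0.64 (edgeR adjusted p = 1) and Actb −0.41 (edgeR adjusted p = 0.852), while Ccl12 at 1.46 (adjusted p = 2.30e-11), Tuba1a at −1.12 (adjusted p = 0.0457) and Iigp1 at 3.53 (adjusted p = 0.0383) still passed.

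For training the difference was 1.14 for Fabp7 (edgeR adjusted p = 3.67e-05), 0.94 for Ptn (adjusted p = 2.34e-04), −1.21 for Ccl3 (adjusted p = 0.0283) and −1.25 for Gpr34 (adjusted p = 0.0283). Without the richest cell of each library, Fabp7 gave 0.92 (edgeR adjusted p = 0.0190), Ptn 0.81 (adjusted p = 0.0674), Ccl3 −1.08 (adjusted p = 0.463) and Gpr34 −1.26 (adjusted p = 0.0777). The part of RNA from ensheathing cells in Fabp7 and Ptn was not tested beyond leaving out cells.

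Border genes were also found among barcodes without a cluster. Of the 1123 barcodes without a cluster, 21 (1.87%) had at least 3 of the 19 border macrophage genes, against 0.191% in the neuronal clusters and 2.15% in microglia. Depth was not matched, with medians of 2327 UMIs in these barcodes, 1013 in neuronal cells and 1719 in microglia. The median of the 21 was 4752 UMIs, and the 1 barcode with at least 6 of these genes had 155007 UMIs, with 226 CPM of border genes, against 15704 in macrophages, and 11716 CPM of neuronal list genes.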

How the results depend on the processing

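The 70 log2 ratios of the genes that stood highest and lowest in macrophages, chosen for extreme ratios, kept their sign in every alternative run, and those of the other listed genes were not rerun, while the number of genes over the limit changed. Genes higher and lower than in monocytes were 45 and 47 with a pseudocount of 50 CPM, 22 and 43 at 4-fold, 233 and 290 in control libraries only, and 81 to 90 and 126 to 139 without 1 library. Against microglia they were 86 and 88, 68 and 58, 286 and 341, and 182 to 193 and 201 to 219, so at 4-fold more genes were higher than lower, unlike at 2-fold. A limit met in fewer libraries passes more genes by its construction. Of 805 alternative log2 ratios of these genes 118 moved by over 1 SD between libraries.

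The counts of genes called between conditions were less stable, and the cause was not tested. For naris-occluded against control (2 called) DESeq2 gave 0, and leaving out a library 1 to 18. For trained against control (0 called) no filter on low counts gave 1, and leaving out a library 0 to 26. For trained against naris-occluded (3 called) no filter gave 11, DESeq2 0, cells of at least 1000 UMIs 6, macrophages without cells rich in other cells' RNA 7, and leaving out a library 5 to 73. The interaction with monocytes gave 0 to 5 and 0 to 4 genes without 1 library, and that with microglia 1 to 16 for occlusion and 0 to 7 for training, where leaving out rich cells gave 0.

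Replicate numbers are shared by the labels but name no common batch, and same-numbered libraries correlated at 0.093 to 0.117 in their deviations from the group means. A fit with the replicate number as a block called 5, 11 and 18 genes in the order above. The number coincides with sex. Among genes named in this text, the block added calls by edgeR adjusted p. For training against control these were Lyve1 and Hspa8 (0.0095 each), Vcam1 and Fabp7 (0.0103 each), Gpr34 (0.0377), Rnase4 (0.0409), Ptn (0.0411) and Ccl3 (0.0466). Occlusion added Tuba1a (6.99e-04) and Gng13 (0.0317). Trained against naris-occluded added Hspa8 (7.52e-05), Ptn (1.91e-04), Iigp1 (6.50e-04), Fabp7 (0.0158), Ifit3 (0.0262), Ccl3 (0.0294) and Gpr34 (0.0310). Further genes that passed are not reported here by name.

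The share of macrophages with a class II chain UMI, as a mean over libraries, was 8.13% at 500 UMIs, 12.4% at 1000 and 13.9% without thinning, and 7.50% to 9.03% without 1 library. That with a Lyve1 UMI was 9.22%, 18.4% and 22.5%, and 6.67% to 10.5%. The 15 log2 fold changes rerun, of the 5 genes with the smallest p in each comparison, kept their sign, and those of the other listed genes were not rerun. Depth limits the condition tests to genes with enough UMIs in 70 to 110 cells a library, and 2 libraries a condition limit their precision.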

Other observations

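Macrophages carried few transcripts of cell division, and Mki67 had a UMI in 4 of 572 cells. The list of 16 division genes summed to 893 and 521 CPM in the control, 449 and 389 in the naris-occluded and 493 and 415 in the trained libraries. Dendritic cell genes summed to 134 to 337 CPM and had 5 of 9 genes with a UMI, but most of the sum was Cd209a, also on the lectin list, at 199.6 ± 74.8 CPM (SD, n = 6), and Flt3, Xcr1, Clec9a and Cd7 had no UMI. Red blood cell genes summed to 39.5 to 197 CPM, with a UMI for 4 of 5 genes.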
